A study of Mus musculus with 12 samples.

Results

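Metalloproteinases and their tissue inhibitors (TIMPs) were followed in lymphatic endothelial cells (LECs) of the mouse lung. The set was taken by name from the gene families, as 39 of the 52636 genes in the count files: 9 secreted matrix metalloproteinases (MMPs), 7 membrane-bound MMPs, 9 ADAMs, 10 ADAMTS proteases and 4 TIMPs. Values of these genes were not used to choose them, although results of these data were known when the list was made. The LECs were sorted from Prox1-EGFP mice, in which green fluorescent protein marks cells that express the lymphatic transcription factor Prox1, as live CD31+ GFP+ cells without EpCAM or hematopoietic lineage markers. Mice of both sexes breathed cigarette smoke (CS) in whole body exposures or room air (RA), for 8 weeks (acute) or for at least 24 weeks (chronic). These times come from the study's methods, while the labels read 8wk and Aged and give no exact age. The groups were acute RA (F and M), acute CS (F and M), chronic RA (F, M1 and M2) and chronic CS (F, M1, M2, M3 and M4), where F and M are the sex in the labels and the number is the library's own. All groups carried the reporter, and the labels used here give no strain. Each acute library held LECs pooled from several mice, and chronic libraries were not pooled. Since 1 estimate of the spread was shared by all 12 libraries, the p-values rest on pools and single mice together. The deepest library was acute RA F with 56998590 counts, and the shallowest was chronic CS F with 18821438.

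Metalloproteinases are zinc-dependent enzymes that cut matrix proteins and cell surface proteins. Secreted MMPs are released as inactive precursors, membrane MMPs act at the cell surface, ADAMs release the outer parts of membrane proteins, and ADAMTS enzymes cut proteoglycans and procollagens. TIMPs bind the active site of these enzymes, and the membrane enzyme Mmp14 together with Timp2 is known for activating pro-Mmp2. In emphysema and COPD, metalloproteinases are known for their part in the breakdown of lung matrix, and in lymphatic vessels Mmp14 is known for cutting the hyaluronan receptor Lyve1.

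Sequence upstream of the start was read for 3 members: Mmp14 and Adam15, which moved in opposite directions after acute CS, and Timp2, the highest of all members. RefSeq (GRCm38.p6) gave promoters for 25 of the 39 members, and the 250 bases before the start are shown 5′ to 3′ on the gene's own strand. Capitals mark the GC box, the letters GGGCGG on either strand, which is known as a binding motif of Sp1-type factors. The windows lie at chr14:54431348-54431597 (+) for Mmp14, chr3:89350029-89350278 (-) for Adam15 and chr11:118355412-118355661 (-) for Timp2.
Mmp14: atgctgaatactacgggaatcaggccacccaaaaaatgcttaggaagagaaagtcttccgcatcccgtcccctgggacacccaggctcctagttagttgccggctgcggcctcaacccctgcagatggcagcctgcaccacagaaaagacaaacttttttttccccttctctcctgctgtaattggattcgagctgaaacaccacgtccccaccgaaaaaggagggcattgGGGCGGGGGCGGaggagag
Adam15: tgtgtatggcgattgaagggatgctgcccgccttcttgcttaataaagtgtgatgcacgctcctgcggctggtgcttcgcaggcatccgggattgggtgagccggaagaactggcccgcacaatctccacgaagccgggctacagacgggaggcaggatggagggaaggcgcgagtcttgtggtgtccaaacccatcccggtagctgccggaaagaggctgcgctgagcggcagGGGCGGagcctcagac
Timp2: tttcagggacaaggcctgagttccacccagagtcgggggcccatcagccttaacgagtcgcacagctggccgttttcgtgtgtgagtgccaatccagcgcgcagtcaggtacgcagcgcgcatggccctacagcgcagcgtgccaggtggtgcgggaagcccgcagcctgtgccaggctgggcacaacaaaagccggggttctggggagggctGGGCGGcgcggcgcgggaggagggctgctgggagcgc
The GC box was found 2 times in the Mmp14 window and 1 time each in those of Adam15 and Timp2. Over all members with a promoter, 16 of 25 had at least 1 GC box, which 32.7% of all 32851 promoter windows of the same length held. The AP-1 motif TGANTCA, searched on both strands, was in the windows of Mmp3, Mmp10, Mmp13 and 1 of 3 listed starts of Adam19, and in 6.75% of all windows. Mmp3, Mmp10 and Mmp13, which lie in the MMP cluster of chromosome 9, also held the TATA box TATAAA, as did Adamts1, against 12.4% of all windows. Neither AP-1 nor the TATA box was found in the 3 windows printed.

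In LECs of room air mice the inhibitors Timp2 and Timp3 were far above every protease. Levels of different genes were compared as FPKM, which scale reads by exon length and library size, over the 5 RA libraries. Timp2 was measured at 980.1 ± 66.8 FPKM (SD, n = 5), between 880.6 and 1054. Timp3, which is held in the matrix and inhibits ADAMs as well as MMPs, was measured at 402.7 ± 55.4 FPKM (SD, n = 5) and at most 472.2, so the levels of these 2 did not overlap. The sheddase Adam10, known for cutting Notch receptors, followed at 142.1 ± 14.6 FPKM (SD, n = 5). Mmp14 came next at 120 ± 12.7 FPKM (SD, n = 5). The ranges of Adam10 (127 to 163.6) and Mmp14 (103.4 to 137.2) overlapped, so their order is within their spread. No other member passed 100 FPKM on average, and the next, Adamts10, was at 20.4 ± 2.59 FPKM (SD, n = 5). Adamts10, Adamts1, Mmp11, Adam17, Adamts4, Adam15, Adamts15, Adam12 and Adam19 lay between 10.5 and 20.4 FPKM, with neighbours in this order overlapping in range. Timp4 at 5.601 ± 3.30 and Timp1 at 3.43 ± 0.974 FPKM (SD, n = 5) were far under the other inhibitors. The gelatinase Mmp2, at 2.91 ± 1.55 FPKM (SD, n = 5), came after Mmp11 among secreted MMPs, with a range that overlapped that of Mmp28. In all, 27 members were above 1 FPKM, and Mmp10 had no read in the 5 RA libraries.

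**Figure D1:**
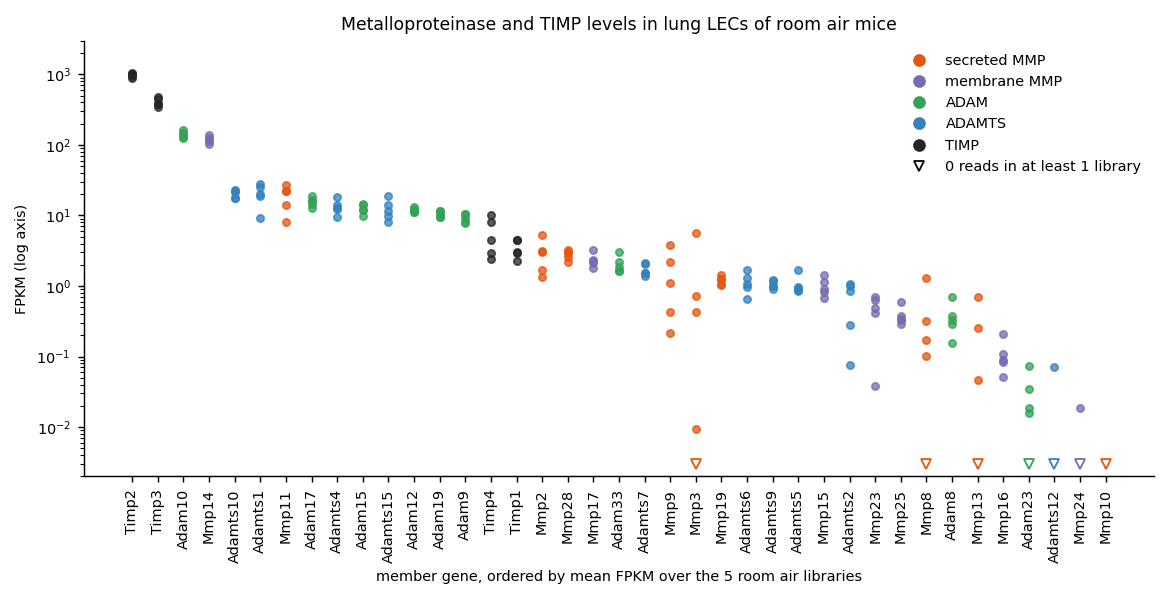
FPKM (log axis) of the 39 members in the 5 room air libraries, 1 point per library, coloured by class and ordered by mean. Triangles mark members with 0 reads in at least 1 library. Timp2 and Timp3 lie on top and apart from each other, Adam10 and Mmp14 overlap near 100, and no other member passes 28.01 FPKM in any library.

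After acute CS, 5 members changed: Mmp2 and Adam15 rose, and Mmp14, Adam12 and Adamts4 fell. Of the 39 members 37 had enough reads to be tested, all but Mmp10 and Mmp24. Genes were called changed at an adjusted p under 0.05 from edgeR's quasi-likelihood test over 21440 genes with Benjamini-Hochberg adjustment. The 2 members called higher compare with 2.75% of all genes tested and the 3 called lower with 0.723%. At an unadjusted p under 0.05 there were 8 members higher and 5 lower, against 10.7% and 5% of all genes. Both CS libraries lay above both RA libraries in 18 members and below them in 9, against 27.4% and 22.5% of all genes. The median log2 fold change of the 37 members was 0.46, that of all genes 0.04. DESeq2 called 6 members higher and 3 lower, against 7.44% and 2.6% of the genes it adjusted.

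**Figure D2:**
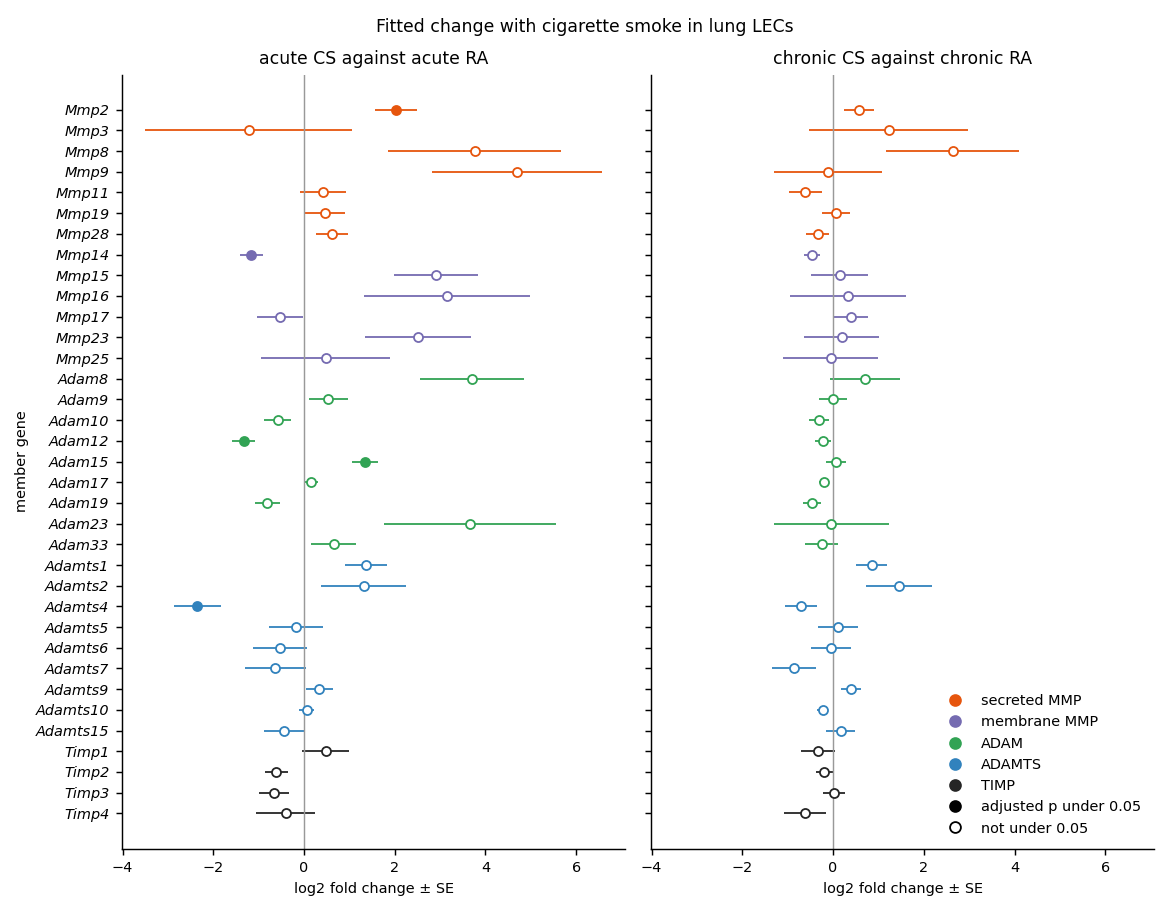
Log2 fold change with its standard error for 35 tested members, by class, after acute CS (left) and chronic CS (right). Filled points have an adjusted p under 0.05. The 5 filled points are Mmp2, Mmp14, Adam12, Adam15 and Adamts4 on the left, and none is filled on the right. Mmp13 and Adamts12, with 0 reads in acute RA, are not drawn.

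Among secreted MMPs, Mmp2 (chr8:92827291-92853420, + strand of GRCm38), known as gelatinase A, was the member called higher. Its level was 10.7 CPM in acute RA F and 17.7 CPM in acute RA M, where CPM are counts scaled to library size with edgeR's TMM factors. It was 42.3 CPM in acute CS F and 74.3 CPM in acute CS M. Both CS libraries were thus above both RA libraries, by a log2 fold change of 2.03 (SE 0.47, edgeR's adjusted p = 0.0377). With sex as a covariate the call was lost (edgeR's adjusted p = 0.0588). After chronic CS the levels were 10.7, 11.1, 7.94, 14.0 and 7.32 CPM in F, M1, M2, M3 and M4. In chronic RA they were 10.4, 4.55 and 5.72 CPM in F, M1 and M2, so these groups overlapped (log2 fold change 0.57, SE 0.34, edgeR's adjusted p = 0.553). The same lungs hold mesenchymal cells, which are known to express Mmp2. The summed level of 11 mesenchymal marker genes was 150.9 and 220.1 CPM in acute RA, and 659.9 and 1045 CPM in acute CS, with all 11 higher and 6 called. Its part in the Mmp2 result was not tested.

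Mmp14 (chr14:54431612-54445364, + strand), the highest membrane MMP in these cells by FPKM, fell after acute CS. It was counted at 750.9 and 817.9 CPM in acute RA F and M, and at 260.7 and 440.9 CPM in acute CS F and M. All CS values were below all RA values (log2 fold change -1.16, SE 0.25, edgeR's adjusted p = 0.0275). In chronic RA the level was 710.5, 680.5 and 616 CPM in F, M1 and M2. Chronic CS F, M1, M2, M3 and M4 had 580.1, 563.1, 433.5, 382.4 and 448.9 CPM, again with no overlap. The chronic difference was smaller, at a log2 fold change of -0.47 (SE 0.18), and was not called (edgeR's unadjusted p = 0.0212, adjusted p = 0.39). The acute minus the chronic change was -0.69 (SE 0.31, edgeR's adjusted p = 0.406).

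Of 8 lymphatic marker genes, 7 had lower levels in both acute CS libraries than in both acute RA libraries (log2 fold changes of -0.69 to -1.42), and 1, Lyve1, higher. Of these, 3 (Prox1, Flt4 and Nrp2) were called lower and 0 higher, and in bulk samples fewer cells of a type and less RNA per cell cannot be told apart. Ccl21a, among the 7 lower markers, was near the floor, at 0.321 and 0.303 CPM in acute RA and 0.0785 and 0.217 CPM in acute CS. Its symbol has 2 identifiers, of which the first was used. Prox1 was counted at 2239 and 2476 CPM in acute RA and at 1042 and 1262 CPM in acute CS (log2 fold change -1.03, SE 0.16, edgeR's adjusted p = 0.00797). The hyaluronan receptor Lyve1 went the other way, at 442.5 and 535.7 CPM in acute RA and 568.2 and 985.8 CPM in acute CS, and was not called (log2 fold change 0.67, SE 0.30, edgeR's adjusted p = 0.307). The defining markers Prox1, Flt4 and Lyve1 were at 442.5 CPM or more in every library. The 8 lymphatic markers summed to 15254 and 17066 CPM in acute RA, and to 6485 and 9822 CPM in acute CS. Members were therefore also read as a percent of Prox1 in the same library, a measure chosen after the data were seen and given with no test. Since Prox1 was 0.489-fold in acute CS, this scale raises every gene there by the inverse of that ratio. Mmp14 was at 33.5 and 33.0% of Prox1 in acute RA F and M, and at 25.02 and 34.9% in acute CS F and M. These acute values overlapped. In chronic RA the percentages were 33.7, 34.8 and 33.6, and in chronic CS 25.5, 31.04, 23.8, 19.1 and 19.3, all below chronic RA. Prox1 itself was at 1836 to 2111 CPM in chronic RA and 1814 to 2322 CPM in chronic CS.

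**Figure D3:**
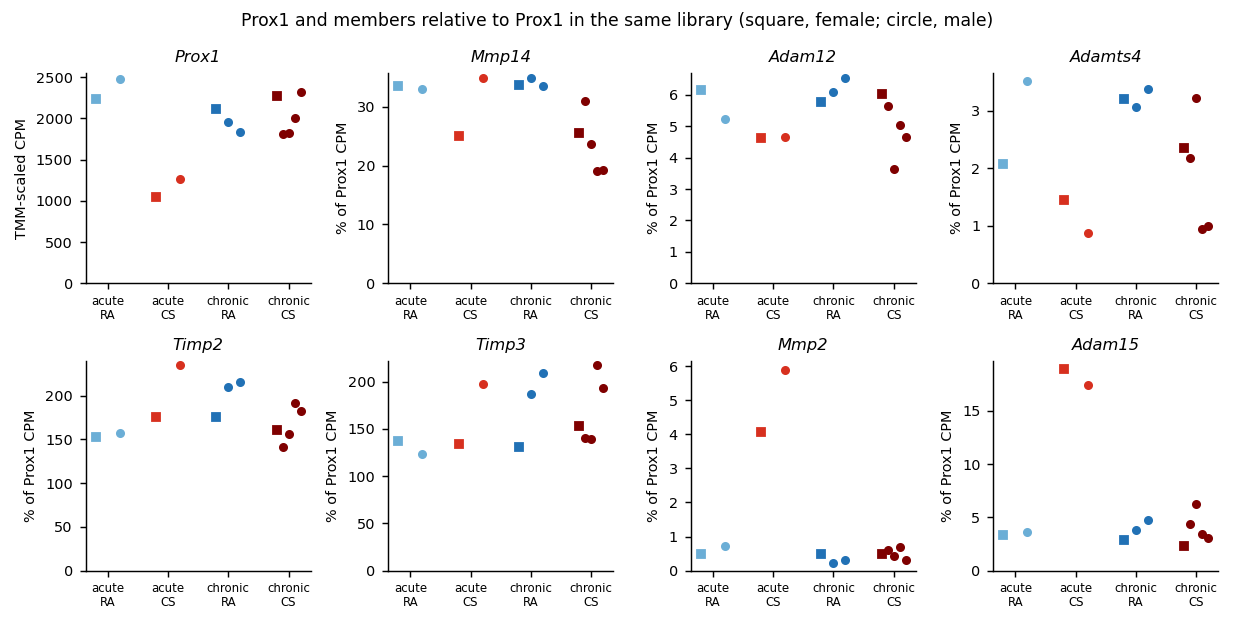
Prox1 in TMM-scaled CPM and 7 members as a percent of the Prox1 CPM of the same library, 1 point per library (square, female; circle, male). Acute CS libraries have the lowest Prox1. The percentages of Mmp14 in chronic CS, 19.1 to 31.04, lie below those in chronic RA, 33.6 to 34.8, and those of Adam15 and Mmp2 in acute CS lie above all other libraries.

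Of the ADAMs, Adam12 fell and Adam15 rose after acute CS. Adam12 (chr7:133883199-134232146, - strand), a protease of insulin-like growth factor binding proteins, was at 138 and 129.9 CPM in acute RA F and M. In acute CS F and M it was at 48.1 and 58.9 CPM, a log2 fold change of -1.32 (SE 0.25, edgeR's adjusted p = 0.0184). In chronic RA its level was 121.9, 119.1 and 120.2 CPM, and in chronic CS 137.4, 102.4, 66.5, 100.9 and 108.2 CPM. Chronic CS thus lay on both sides of chronic RA (log2 fold change -0.22, SE 0.18, edgeR's adjusted p = 0.679). Relative to Prox1, Adam12 was at 6.16 and 5.24% in acute RA and at 4.62 and 4.67% in acute CS, a narrower gap than in CPM that still held both CS values below both RA values.

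Adam15 (chr3:89338542-89349996, - strand), an ADAM known from endothelial cell junctions, was at 74.4 and 89.6 CPM in acute RA F and M. In acute CS F and M it was at 197 and 219.6 CPM (log2 fold change 1.35, SE 0.30, edgeR's adjusted p = 0.0312). Its direction was opposite to that of 7 of the 8 lymphatic markers and the same as that of Lyve1. Relative to Prox1 it was at 3.32 and 3.62% in acute RA and at 18.9 and 17.4% in acute CS. Adam15 is also expressed by other cells, and the summed level of 12 blood endothelial markers was 2935 and 3784 CPM in acute RA and 7195 and 6748 CPM in acute CS, with all 12 higher and 6 called. The part of these cells in the Adam15 result was not tested. In chronic RA Adam15 was at 60.8, 74.2 and 86.9 CPM, and in chronic CS at 52.5, 79.5, 113.6, 69.5 and 70.7 CPM, which overlapped (log2 fold change 0.06, SE 0.22, edgeR's adjusted p = 0.941).

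Adamts4 (chr1:171250421-171260637, + strand), an aggrecanase that cuts versican, had the most negative fold change among the 37 tested members after acute CS. It was at 46.3 and 87.2 CPM in acute RA F and M, and at 15.1 and 11.02 CPM in acute CS F and M (log2 fold change -2.35, SE 0.51, edgeR's adjusted p = 0.0292). Chronic RA F, M1 and M2 had 67.8, 59.7 and 61.9 CPM. Chronic CS F, M1, M2, M3 and M4 had 53.4, 39.4, 58.9, 19.1 and 23.1 CPM, all below chronic RA, but the change was not called (log2 fold change -0.71, SE 0.35, edgeR's adjusted p = 0.487). Relative to Prox1 it was at 2.07 and 3.52% in acute RA, and at 1.45 and 0.873% in acute CS. In chronic RA the percentages were 3.21, 3.06 and 3.37, and in chronic CS 2.35, 2.17, 3.23, 0.952 and 0.997, so that on this scale M2 lay inside the chronic RA range. The lowest chronic values were those of M3 and M4, which were also the deepest chronic CS libraries, at 47494020 and 45436986 counts against 18821438 to 22885446 in the others. The chronic log2 fold change was -1.58 with M3 and M4 only and -0.31 with F, M1 and M2 only.

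The 5 calls rested on 2 pools per group. Without acute CS F, acute RA F or acute RA M, 0 members were called by edgeR, and without acute CS M there were 3, of which Adam12 (adjusted p = 0.0363) and Mmp14 (adjusted p = 0.0078) were called before. The largest adjusted p over those 4 fits was 0.302 for Mmp2, 0.199 for Mmp14, 0.168 for Adam12, 0.25 for Adam15 and 0.225 for Adamts4. In the fit of acute libraries alone 0 members were called, and with sex as a covariate 4 were, all but Mmp2. The direction of each of the 5 was the same in all 11 alternatives.

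**Figure D4:**
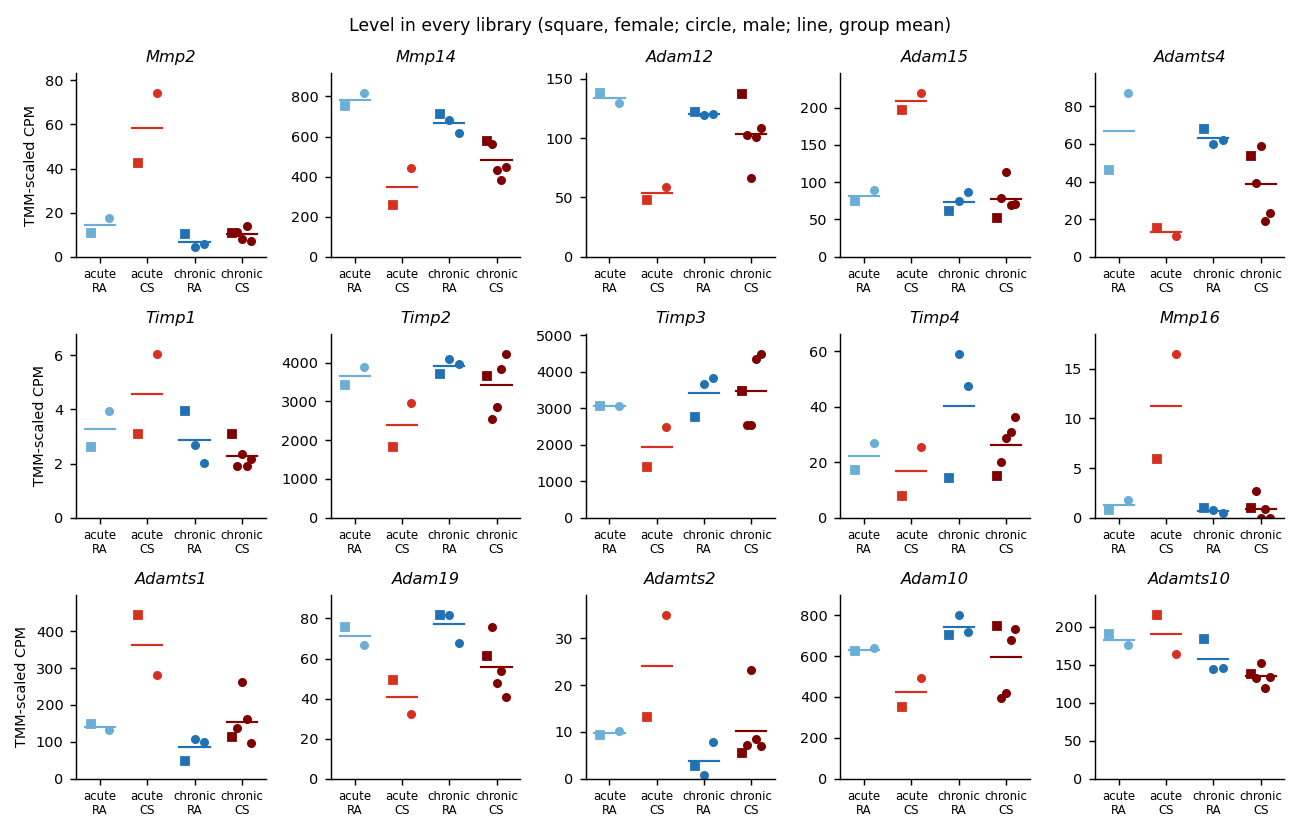
TMM-scaled CPM of 15 members in each of the 12 libraries (square, female; circle, male; line, group mean), each panel on its own linear axis from 0. In acute CS, Mmp2 and Adam15 lie above and Mmp14, Adam12 and Adamts4 below both acute RA libraries, and in chronic CS Mmp14 and Adamts4 lie below chronic RA.

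No TIMP changed by the adjusted p in either exposure. Timp2 (chr11:118301069-118355740, - strand) was at 3431 and 3884 CPM in acute RA F and M, and at 1830 and 2972 CPM in acute CS F and M. The groups did not overlap, but the change was not called (log2 fold change -0.61, SE 0.25, edgeR's adjusted p = 0.27). Relative to Prox1 the direction was reversed, with Timp2 at 153.2 and 156.8% in acute RA and at 175.6 and 235.5% in acute CS. In chronic RA it was at 3709, 4107 and 3962 CPM, and in chronic CS at 3661, 2558, 2852, 3837 and 4232 CPM, which overlapped. Timp3 (chr10:86300372-86349506, + strand) was at 3063 and 3065 CPM in acute RA and at 1398 and 2495 CPM in acute CS (log2 fold change -0.65, SE 0.33, edgeR's adjusted p = 0.378). Relative to Prox1 it was at 136.8 and 123.8% in acute RA and at 134.2 and 197.7% in acute CS, which overlapped. Its chronic RA values of 2769, 3656 and 3845 CPM lay within its chronic CS values of 3479, 2540, 2545, 4366 and 4497 CPM.

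Timp1, the inhibitor known to be induced in inflammation, stayed low, at 2.62 and 3.95 CPM in acute RA and 3.08 and 6.05 CPM in acute CS (log2 fold change 0.47, SE 0.53, edgeR's adjusted p = 0.785). In chronic RA it was at 3.95, 2.68 and 2.03 CPM and in chronic CS at 3.10, 1.89, 2.37, 1.91 and 2.17 CPM, with overlap. Timp4 was at 17.3 and 26.9 CPM in acute RA and 7.97 and 25.4 CPM in acute CS. It was widely spread in chronic RA, at 14.4, 59.0 and 47.4 CPM, against 14.9, 19.99, 28.8, 30.9 and 36.4 CPM in chronic CS (log2 fold change -0.62, SE 0.47, edgeR's adjusted p = 0.656). The ratio of Timp2 to Mmp14 in FPKM was 6.99 and 7.26 in acute RA and 10.7 and 10.3 in acute CS. It was 7.99, 9.23 and 9.84 in chronic RA, and 9.65, 6.95, 10.1, 15.4 and 14.4 in chronic CS. The ratio was thus higher in both acute CS libraries than in acute RA, and in chronic CS it was highest in M3 and M4.

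Mmp8, Mmp9, Adam8, Mmp13, Mmp15, Mmp16, Mmp23, Adam23 and Adamts12 had higher means in acute CS. None was called by edgeR in the fit of all 12 libraries, and all but Mmp16 were picked for display after their values were seen. Of these, DESeq2 called Adam8 (adjusted p = 0.00505), Mmp15 (adjusted p = 0.00927) and Mmp13 (adjusted p = 0.0246) higher. Mmp9 (gelatinase B) was at 3.95 and 0.757 CPM in acute RA F and M, and at 116.8 and 6.399 CPM in acute CS F and M. Mmp8, the neutrophil collagenase, was at 3.11 and 0.416 CPM in acute RA and at 45.5 and 2.43 CPM in acute CS. Most of both thus came from acute CS F. Summed over 8 neutrophil markers, that library held 1086 CPM and its male counterpart 19.2 CPM. The same sum was 25.5 and 10.2 CPM in acute RA, where Ly6g and Ltf had no reads. The fold changes were 4.70 (SE 1.88, edgeR's adjusted p = 0.241) for Mmp9 and 3.76 (SE 1.91, adjusted p = 0.39) for Mmp8 on the log2 scale. Of the chronic libraries, CS M2 had the highest neutrophil sum, at 160.3 CPM, with the highest Mmp8, at 4.07 CPM, but no reads of Mmp9. Chronic RA M2 had the lowest sum, at 5.48 CPM, and 13.65 CPM of Mmp9. The highest chronic Mmp9, 14.4 CPM in CS M1, came with a sum of 109.4 CPM. The part of neutrophil RNA in these values was not tested. Alveolar epithelial markers were also apart in acute CS F, with a sum of 6420 CPM. Their sum was 214.1 CPM in the male CS pool and 760.7 and 1069 CPM in the acute RA pools. The sum of 5 erythroid markers stood apart in acute CS M, at 697.3 CPM against 10.6 CPM in acute CS F and 37.7 and 69.9 CPM in acute RA.

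**Figure D5:**
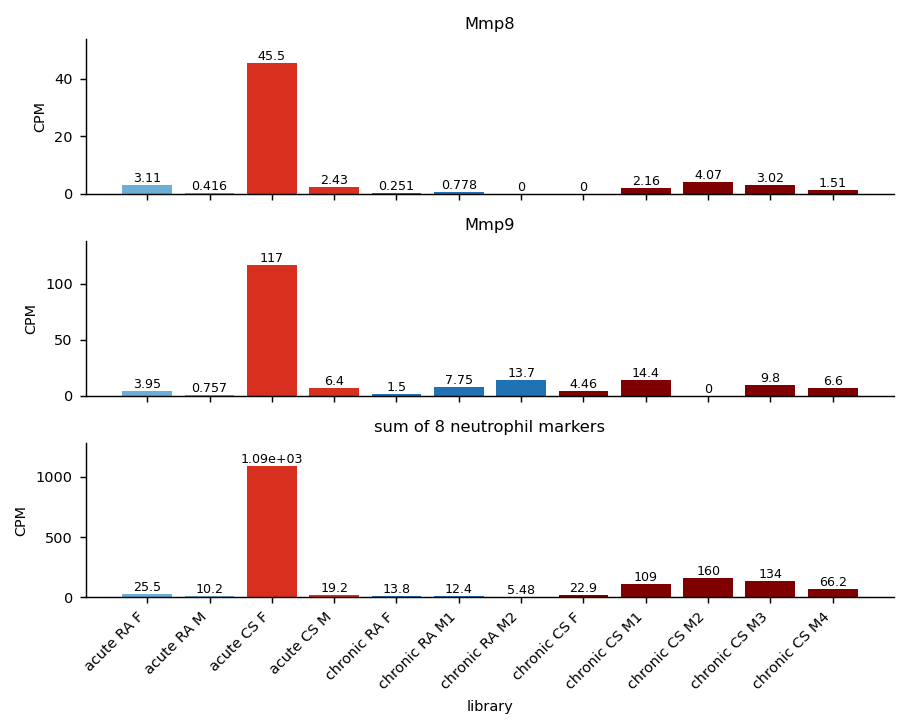
Mmp8, Mmp9 and the sum of 8 neutrophil marker genes in TMM-scaled CPM, 1 bar per library on linear axes from 0. All 3 are highest in acute CS F, at 45.5, 116.8 and 1086 CPM, while the chronic libraries hold at most 4.07 CPM of Mmp8 and 14.4 CPM of Mmp9.

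Adam8, a leukocyte ADAM, was at 1.33 and 1.55 CPM in acute RA and at 25.2 and 12.3 CPM in acute CS (log2 fold change 3.70, SE 1.15, edgeR's adjusted p = 0.123). The macrophage markers, 11 genes, summed to 1127 and 1003 CPM in acute RA and to 7165 and 4245 CPM in acute CS, and their part was not tested. Of the 11, 10 were higher and 4 of these were called. The exception was Mrc1, a mannose receptor that lymphatic endothelium is also known to express, which was called lower, from 663 and 631.6 CPM to 265.3 and 410.9 CPM (log2 fold change -0.94, SE 0.17, edgeR's adjusted p = 0.0155). The sum of 10 lymphoid cell markers was 19.4 and 21.3 CPM in acute RA and 214 and 186.7 CPM in acute CS, with all 10 higher and 2, Cd3e and Cd3g, called. That sum was 48.2 to 77.4 CPM in chronic RA and 34.9 to 57.5 CPM in chronic CS, which overlapped. The part of lymphoid cells in the Adam8 values was not tested. Mmp15, a membrane MMP, was at 4.90 and 3.65 CPM in acute RA and at 55.1 and 9.22 CPM in acute CS (log2 fold change 2.91, SE 0.92, edgeR's adjusted p = 0.13). Without acute CS M, which left acute CS F alone in its group, the change of Mmp15 was 3.69. Mmp16, a membrane MMP, was at 0.727 and 1.80 CPM in acute RA, and at 5.93 and 16.5 CPM in acute CS (log2 fold change 3.15, SE 1.83, edgeR's adjusted p = 0.469). That change was 2.23 without acute CS M and 3.91 without acute RA M. It was at or under 0.940 CPM in chronic RA and at or under 2.73 CPM in chronic CS, with 0 reads in M2 and M4. The collagenase Mmp13 and the cartilage protease Adamts12 had 0 reads in both acute RA libraries. In acute CS F and M, Mmp13 was at 0.334 and 1.497 CPM and Adamts12 at 2.61 and 0.239 CPM, so most of each came from 1 library, and neither was called by edgeR (adjusted p = 0.198 and 0.277). Chronic RA F, M1 and M2 held 0.125, 1.87 and 0.686 CPM of Mmp13, and 0.783, 0 and 0 CPM of Adamts12. The acute change of Mmp13 and its difference between the room air controls, given below, thus share the same acute RA libraries without reads. Mmp23 and Adam23 also had both CS libraries above both RA libraries, with adjusted p of 0.333 and 0.401 from edgeR.

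Adamts1, an aggrecanase that restrains angiogenesis, had its CS values above RA values after acute exposure. It was at 148.5 and 133.2 CPM in acute RA and at 445.2 and 281.9 CPM in acute CS (log2 fold change 1.37, SE 0.47, edgeR's adjusted p = 0.165), and DESeq2 called it higher (adjusted p = 0.0327). In chronic RA it was at 48.6, 108 and 99.6 CPM, and in chronic CS at 113, 137.2, 260.9, 162.5 and 95.9 CPM. M4 alone of chronic CS lay inside the chronic RA range (log2 fold change 0.85, SE 0.35, edgeR's adjusted p = 0.422). The procollagen N-proteinase Adamts2 was at 9.26 and 10.1 CPM in acute RA and at 13.2 and 35.0 CPM in acute CS. Chronic RA had 2.63, 0.720 and 7.84 CPM of Adamts2, and chronic CS 5.36, 7.26, 23.1, 8.47 and 7.01 CPM (log2 fold change 1.46, SE 0.72, edgeR's adjusted p = 0.485). The chronic change was 2.62 without chronic RA M2 and 0.92 without chronic CS M2 on the log2 scale, and the acute change was 0.45 without acute CS M and 1.86 without acute CS F.

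Adam10 was at 623.8 and 640 CPM in acute RA F and M and at 352 and 492 CPM in acute CS F and M (log2 fold change -0.58, SE 0.30, edgeR's adjusted p = 0.403). Chronic RA had 704.8, 803.7 and 719.4 CPM of Adam10, and chronic CS 749.3, 395.7, 418.2, 681.6 and 731.8 CPM, so that M1 and M2 were the lowest of all chronic libraries. Adam19, an ADAM known from heart development, was at 75.7 and 66.9 CPM in acute RA and at 49.4 and 32.2 CPM in acute CS (log2 fold change -0.80, SE 0.28, edgeR's adjusted p = 0.173). Its chronic RA values were 81.9, 81.9 and 67.5 CPM, and its chronic CS values 61.3, 76.0, 47.8, 53.9 and 40.9 CPM (log2 fold change -0.46, SE 0.20, edgeR's adjusted p = 0.441). Adam17, which releases tumour necrosis factor, lay between 91.95 and 135.8 CPM over all 12 libraries. The fibrillin-associated Adamts10 was at 190 and 175.7 CPM in acute RA and at 216.2 and 163.9 CPM in acute CS. In chronic RA it was at 183.6, 144.4 and 146 CPM and in chronic CS at 137.4, 132.2, 152.1, 119.6 and 133.3 CPM, which overlapped.

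The other tested members were not called in any comparison by edgeR or DESeq2. Among secreted MMPs these were Mmp3, Mmp11, Mmp19 and Mmp28, with acute log2 fold changes between -1.22 and 0.62. The lowest of these was that of the stromelysin Mmp3, at 0.0169 and 10.1 CPM in acute RA and 2.83 and 1.497 CPM in acute CS, which overlapped. Mmp17 and Mmp25 of the membrane MMPs had -0.53 and 0.47, where Mmp25, known from leukocytes, overlapped at 3.18 and 1.72 CPM in acute RA and 5.18 and 1.63 CPM in acute CS. Adam9 and Adam33 had 0.54 and 0.65. Adamts5, Adamts6, Adamts7, Adamts9 and Adamts15 were between -0.63 and 0.34. Mmp10 had reads in acute CS M alone, at 0.195 CPM, and Mmp24 had reads in 4 libraries, at most 0.472 CPM.

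After chronic CS 0 of 37 members were called by edgeR or DESeq2. Of 21440 genes edgeR called 0 (0%), and DESeq2 called 2.91% of those it adjusted. At an unadjusted p under 0.05, 1 member was higher (Adamts1) and 2 were lower (Mmp14 and Adam19), against 5.57% and 5.35% of all genes. Chronic CS lay above chronic RA in every library in 0 members and below in 2, Mmp14 and Adamts4, against 3.92% and 5.49% of all genes. The median log2 fold change was -0.05, against 0.01 for all genes. Mesenchymal markers summed to between 124 and 156.2 CPM in chronic RA and between 228.3 and 362.6 CPM in chronic CS. Alveolar epithelial markers summed to 248 to 472 CPM in chronic RA and 924.3 to 4599 CPM in chronic CS, and macrophage markers to 730.5 to 1072 CPM and 925.8 to 2424 CPM. Neutrophil markers summed to 5.48 to 13.8 CPM in chronic RA and 22.95 to 160.3 CPM in chronic CS, and of these 3 lists the macrophage sums alone overlapped. The part of these cells in the chronic values was not tested. The lymphatic markers were at 19934 to 22931 CPM in chronic RA and 14901 to 21220 CPM in chronic CS.

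The difference between the acute and the chronic change was tested directly, and 0 members passed with edgeR, while DESeq2 called Adam12 and Adam15. Of all genes 0.401% passed in edgeR with a more positive and 0.0513% with a more negative acute change, and in DESeq2 3.96% and 1.37%. At an unadjusted p under 0.05, 7 members had a more positive and 3 a more negative acute change, against 8.17% and 3.71% of all genes. The smallest p-values were those of Adam15, at a difference of 1.28 (SE 0.36, edgeR's adjusted p = 0.163), and Adam12, at -1.10 (SE 0.31, adjusted p = 0.164). Without chronic CS M2, the library with the lowest Adam12 and the highest Adam15 of its group, edgeR's adjusted p was 0.0357 for Adam12 and 0.0463 for Adam15. That library lay nearest to the acute direction for both genes, so leaving it out could only widen the difference. Over 20 alternatives the adjusted p was under 0.05 in 3 for Adam12 and in 2 for Adam15.

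Between the room air controls, chronic RA against acute RA, 0 members and 0% of all genes were called by edgeR, and DESeq2 called 0 members and 1.55% of the genes it adjusted. At an unadjusted p under 0.05, 2 members were higher (Mmp11 and Mmp13) and 1 lower (Mmp2), against 4.52% and 2.5% of all genes. Mmp11, known as stromelysin-3, was at 22.5 and 39.1 CPM in acute RA and at 74.97, 61.7 and 61.4 CPM in chronic RA (log2 fold change 1.10, SE 0.48, edgeR's adjusted p = 0.704). In chronic RA the lymphatic marker sum was 19934 to 22931 CPM against 15254 to 17066 CPM in acute RA, the lymphoid sum 48.2 to 77.4 against 19.4 to 21.3 CPM, and the erythroid sum 196.1 to 431.9 against 37.7 to 69.9 CPM. The alveolar epithelial sum was lower, at 248 to 472 against 760.7 to 1069 CPM. The mesenchymal sums overlapped, at 124 to 156.2 against 150.9 to 220.1 CPM, while 6 of 11 mesenchymal markers were lower at an unadjusted p under 0.05. The part of these cells in the room air values was not tested, and the groups differ in age, exposure time and pooling, which cannot be told apart.

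Genes that act on these enzymes changed in part. Of 18 listed genes of activation, trafficking and inhibition, 16 were tested, and 3 were called higher and 0 lower after acute CS, against the 2.75% and 0.723% of all genes given above. After chronic CS 0 were called by edgeR. At an unadjusted p under 0.05, 2 were then higher and 6 lower, against 5.57% and 5.35% of all genes. Chronic CS lay above chronic RA in every library in 1 gene and below in 5, against 3.92% and 5.49%. Those below were Bsg, Pcsk7, Tspan5, Tspan14 and Tspan15. Pcsk5, a proprotein convertase, was at 2.82 and 4.07 CPM in acute RA and at 59.6 and 14.7 CPM in acute CS (log2 fold change 3.43, SE 0.70, edgeR's adjusted p = 0.0223). Lrp1, an endocytic receptor that clears MMP and TIMP complexes, was at 17.1 and 7.76 CPM in acute RA and at 156.4 and 87.3 CPM in acute CS (log2 fold change 3.29, SE 0.63, edgeR's adjusted p = 0.0184). Its chronic RA levels were 10.1, 5.53 and 8.91 CPM, and those in chronic CS 21.1, 38.7, 62.3, 39.1 and 16.8 CPM, all above chronic RA, and the chronic change was not called (log2 fold change 2.12, SE 0.47, edgeR's unadjusted p = 0.000832, adjusted p = 0.229). Tspan17, a tetraspanin that carries Adam10 to the surface, was at 26.1 and 24.1 CPM in acute RA and at 57.7 and 62.6 CPM in acute CS (log2 fold change 1.26, SE 0.20, edgeR's adjusted p = 0.00853). In chronic RA Tspan17 was at 42.9, 46.8 and 44.2 CPM, all above acute RA. In chronic CS it was at 38.4, 43.0, 30.4, 42.6 and 48.0 CPM, which overlapped chronic RA. Its acute change also differed from its chronic change, by 1.40 (SE 0.24, edgeR's adjusted p = 0.0406). That p was above 0.05 when any library but chronic CS M2 was left out, up to 0.25 without acute RA M. Of 7 ADAMTS-like genes, Adamtsl5 was called higher, from 4.07 and 3.73 CPM to 64.4 and 23.4 CPM (log2 fold change 3.49, SE 0.70, adjusted p = 0.022) and Adamtsl1 lower (log2 fold change -1.83, SE 0.34, adjusted p = 0.0147) by edgeR. Adamtsl1 was at 207.5 and 202.8 CPM in acute RA and at 50.3 and 64.7 CPM in acute CS, and at 101 to 175.2 CPM in chronic RA. In the same acute CS pools the mesenchymal sum was 659.9 and 1045 CPM against 150.9 and 220.1 CPM in acute RA, and the macrophage sum 7165 and 4245 CPM against 1127 and 1003 CPM. The lymphoid and blood endothelial sums given above were higher there too, and the part of these cells in the changes of the pathway genes was not tested. Without acute RA F or acute RA M none of these 5 genes was called, and without acute CS F Tspan17 alone was. The largest edgeR adjusted p over these fits was 0.218 for Pcsk5, 0.192 for Lrp1, 0.116 for Tspan17, 0.208 for Adamtsl5 and 0.147 for Adamtsl1. The log2 fold change of Pcsk5 was 2.10 without acute CS F and 4.11 without acute CS M, that of Adamtsl5 was 2.59 without acute CS F, and that of Lrp1 was 3.97 without acute RA F, each over 1.5 times from the fold given. Of 24 further genes of the metalloproteinase families 13 were tested, and 0 were called by edgeR in any comparison, with 2 higher and 1 lower at an unadjusted p under 0.05 after acute CS, against 10.7% and 5% of all genes. Mmp12, the macrophage elastase studied in smoke-induced emphysema, was looked at after its values were seen. It had 0 reads in both acute RA libraries and 3.65 and 3.49 CPM in acute CS (edgeR's adjusted p = 0.225). In chronic RA it was at 2.35, 0.490 and 1.58 CPM, and in chronic CS it had 0 reads but in M3, at 2.98 CPM (log2 fold change -1.26, SE 1.73, edgeR's adjusted p = 0.824).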

How the data were processed

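RNA of sorted lung LECs was sequenced in 12 libraries (SMART-Seq v4 and Nextera XT, polyadenylated RNA, which is not strand-marked by that kit). The deposited files hold raw counts per gene. The authors checked reads with FastQC 0.11.9, trimmed them with Skewer, filtered them with Minion, aligned them to GRCm38/mm10 with STAR and counted in its GeneCounts mode. Neither the STAR version, nor the annotation or its strand setting, is given in the sources used here. Without the strand setting, reads of genes that overlap on opposite strands cannot be told apart. The counts of all 12 libraries were fitted by group in R 4.3.3 with edgeR 4.0.16 (filter by expression, 21440 genes, TMM factors, quasi-likelihood F-test, Benjamini-Hochberg over all genes, threshold 0.05). Tables were made in Python 3.11.15 with pandas 2.3.3. GENCODE M21 gave symbols, coordinates and exons (147 identifiers not found), and RefSeq the promoters. FPKM used the union of exons. Log2 CPM had a prior count of 2. The floor was 3 counts, 0.0526 CPM in the deepest and 0.159 CPM in the shallowest library, which allows for counting error alone. The edgeR test was first tested on simulated counts.

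Members, gene lists and tests were chosen with earlier results of these data known. Values per library are given for members called in any comparison, the 4 TIMPs, Mmp2, Mmp14 and Mmp16, the 5 smallest chronic p-values and the 5 highest room air FPKM. Other members are given by class, with values for those of which the levels of other cell types are shown, chosen after their values were seen. Of the pathway lists, called genes are named. Alternatives were DESeq2 1.42.0, relative log expression factors, library size alone, no filter, the compared groups alone, a sex term, the replicate block, leaving out each library, and subsets of chronic CS. Libraries of 1 sex and number were not paired, since the correlations of their deviations did not pass 0.1.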

Additional observations from a re-analysis of the deposited data

Results flagged for a closer look

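Chronic CS was the one group of 4 to 10 libraries, and in 3 of 37 members a library stood apart from the other 4, by a gap in log2 CPM over 0.71 of the group's range. Chance gives such a gap in about 1 of 20 members, or 1.85 of 37. Mmp8 was at 0 CPM in chronic CS F, against 1.51 to 4.07 CPM in the others. Mmp9 was at 0 CPM in chronic CS M2, against 4.46 to 14.4 CPM in the others. Adamts6 was at 2.45 CPM in chronic CS M2, against 7.75 to 12.03 CPM in the others. None of the 3 members was called after chronic CS. The Mmp9 value also enters its acute minus chronic difference of 4.82 (SE 2.12, edgeR's unadjusted p = 0.0436, adjusted p = 0.402).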

How the results depend on the processing

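For acute CS, 5 members and 745 genes were called. With relative log expression factors, library size alone or no filter the same 5 members were called, and with sex as a covariate Mmp2 was not (adjusted p = 0.0588). DESeq2 called 9 members (those 5 with Adam8, Adamts1, Mmp13 and Mmp15) and 1926 genes, the groups compared alone 0 and 139, and the replicate block 0 and 73. Leaving out 1 acute library gave 0 to 3 members and 3 to 858 genes, the fewest without acute RA M. For chronic CS members called were 0 in all alternatives. Genes called, 0 in the fit of all libraries, were 524 with DESeq2, 1 with chronic CS F, M1 and M2 only, 16 with M3 and M4 only, 10 with no filter, and 0 to 4 without 1 library. For chronic RA against acute RA genes called were 253 with DESeq2, 6 with no filter and 42 with the groups compared alone, and members 0 throughout. For the acute minus the chronic change, members called were 2 with DESeq2 (Adam12 and Adam15), 1 with M3 and M4 only (Adam12) and 0 to 2 without 1 library. Genes called, 97 in the fit of all libraries, were 916 with DESeq2, 191 with no filter, 0 with the replicate block, 21 with sex, and 0 to 263 without 1 library. Changes that turned sign were all uncalled. Over fits without 1 library, acute changes ranged from -0.092 (without acute CS M) to 0.882 for Timp1, from -1.470 to 0.202 (without acute CS F) for Timp4, and from -0.157 (without acute CS F) to 0.242 for Adamts10, which was also negative without acute RA M. Chronic changes ranged from -0.120 (without chronic CS M2) to 0.199 for Adam15, also negative without chronic RA F, from -0.096 (without chronic RA F) to 0.139 for Timp3, also negative without chronic CS M3 or M4, and from -0.632 (without chronic CS M1) to 0.662 for Mmp16. For Adamts4 in the room air controls the range was -0.465 to 0.431 (without acute RA M). With chronic CS M3 and M4 only, Adam15 was at -0.078, Timp2 at 0.038 and Mmp16 at -0.741. With F, M1 and M2 only Timp3 was at -0.246, and with the replicate block Timp3 was at -0.266 and Mmp16 at -0.270. The cause of these changes was not tested. Library size alone moved the median of all genes to 0.10 in chronic CS and -0.10 in the room air controls. Same-numbered libraries correlated at -0.042 to 0.069, so the replicate block rests on a shared number alone, and it could not be fitted for the room air controls. Leaving out a library left an acute group with 1 library, assumed to vary like the others. Depth limits members under about 1 CPM.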
